A study of Mus musculus with 12 samples.

Results

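The genes described here are 9 components of the canonical Wnt pathway, taken by symbol from the deposited expression tables and linked by Ensembl gene ID to the count file of each library. They are the 4 nuclear effectors of the pathway, Lef1, Tcf7, Tcf7l1 and Tcf7l2, and the 5 feedback targets Axin2, Sp5, Nkd1, Rnf43 and Znrf3, out of 21728 genes listed in any file. They are chosen by name and not by level, though with earlier results of these data known. RNA-seq was done on 12 libraries, 3 in each of 4 groups, from C57BL/6 mouse embryonic stem cells carrying the reporters Blimp1-mVenus and Stella-ECFP (the BVSC genotype), and every group shares this strain and genotype. The groups were day 5 primordial germ cell-like cells (PGCLCs) of the 100 nM bisphenol A (BPA) arm, untreated day 5 PGCLCs, epiblast-like cells (EpiLCs) given 100 nM BPA, and untreated EpiLCs, whose library descriptions name water. The stem cells came from inhibitor medium with LIF. They were then grown for 48 h as EpiLCs, with BPA medium put on 24 h into that culture for the last 24 h, and aggregated in PGCLC medium. PGCLC libraries were made from cells sorted for both reporters, and EpiLC libraries from whole cultures. The labels do not say whether BPA was also present in PGCLC medium, nor whether the 3 libraries of a group came from separate cultures. Each p-value rests on the spread within groups over all libraries of its fit, and this spread may be technical.

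In canonical Wnt signalling, a Wnt ligand bound to a Frizzled receptor and an Lrp co-receptor stops the destruction complex from degrading β-catenin, which then enters the nucleus and joins DNA-bound TCF/LEF factors. The 4 factors bind a shared motif with an HMG box. Lef1 and Tcf7 are mostly linked to activation, while Tcf7l1 acts mainly as a repressor that restrains naive pluripotency genes in mouse stem cells, and Tcf7l2 can do either. The targets feed back on the pathway: Axin2 is a scaffold of the destruction complex, Nkd1 binds Dishevelled, Rnf43 and Znrf3 are ubiquitin ligases that remove Frizzled from the cell surface, and Sp5 is a zinc finger transcription factor that acts on other Wnt targets. In the mouse embryo, Wnt signalling makes epiblast cells competent to form germ cells. The culture medium named in the labels for the stem cells commonly includes an inhibitor of the kinase Gsk3, which stabilises β-catenin.

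Promoter sequence is shown for 4 genes: Tcf7l2 and Lef1, which were higher in the BPA arm of PGCLCs, Axin2, the usual readout of the pathway, and Sp5, which was listed in PGCLCs only. RefSeq promoter windows on GRCm38.p6 cover 250 bases before and 50 after an annotated start, and 14 windows matched 8 of the 9 genes. The HMG box motif was searched as CTTTGAT and CTTTGTT on both strands. Either was found in 9.33% of 32851 windows (CTTTGAT in 3.73%, CTTTGTT in 5.85%). Of the 14 windows, 2 held matches. The Sp5 window held a pair that do not overlap, CTTTGTT as its reverse complement at position -222 and CTTTGAT as printed at position -104 from the start. A window of Tcf7l2 at an internal start held CTTTGTT at -14. A match is a string of letters and was not tested for binding. Not every window lies at the promoter of the GENCODE gene model. The nearest RefSeq start lies at the GENCODE start of Sp5, Axin2 and Tcf7, and 10 bases from it for Tcf7l2, 148 for Lef1, 209 for Tcf7l1, 365 for Rnf43 and 6279 for Nkd1. The Tcf7 window may lie in coding sequence and is not printed. The 250 bases before the start read as follows, 5′ to 3′ on the strand of the gene, with matches to the motif in capitals.
Sp5, chr2:70474673-70474922, plus strand:
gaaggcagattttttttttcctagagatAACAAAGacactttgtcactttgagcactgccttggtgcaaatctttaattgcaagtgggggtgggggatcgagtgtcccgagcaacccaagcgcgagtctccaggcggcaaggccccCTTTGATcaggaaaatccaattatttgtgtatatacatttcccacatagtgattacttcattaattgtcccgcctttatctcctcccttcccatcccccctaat
Axin2, chr11:108920099-108920348, plus strand:
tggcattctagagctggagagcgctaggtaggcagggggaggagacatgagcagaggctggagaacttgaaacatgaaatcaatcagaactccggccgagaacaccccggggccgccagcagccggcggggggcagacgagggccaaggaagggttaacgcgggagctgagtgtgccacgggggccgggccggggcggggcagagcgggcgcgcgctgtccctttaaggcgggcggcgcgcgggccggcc
Tcf7l2, chr19:55741560-55741809, plus strand:
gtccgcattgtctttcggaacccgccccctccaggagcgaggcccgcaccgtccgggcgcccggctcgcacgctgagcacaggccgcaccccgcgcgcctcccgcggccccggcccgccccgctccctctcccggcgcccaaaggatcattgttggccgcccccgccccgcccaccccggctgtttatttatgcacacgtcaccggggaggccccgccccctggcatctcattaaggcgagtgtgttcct
Lef1, chr3:131110073-131110322, plus strand:
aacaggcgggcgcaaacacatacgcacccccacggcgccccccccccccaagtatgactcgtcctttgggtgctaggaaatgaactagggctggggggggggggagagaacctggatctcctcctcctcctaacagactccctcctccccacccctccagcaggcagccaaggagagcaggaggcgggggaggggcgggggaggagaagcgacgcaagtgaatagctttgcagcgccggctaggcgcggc

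The PGCLC libraries held 30375633 to 34309195 counts in genes and the EpiLC libraries 11785338 to 22029195. The count files list no gene with fewer than 10 counts, so an unlisted gene has at most 9, which is 0.262 to 0.764 CPM depending on the library. Among the EpiLC libraries, untreated replicate 3 differed most, with a first principal component of 93.7, against values of -27.6 to -9.02 in the other 5. Its description carries another replicate number than its title, and the title was followed. Naming schemes in the labels differ between the BPA and the untreated PGCLC libraries and between the stages. A summary row for reads that align to several places is present in the 3 BPA PGCLC files and absent from the 3 untreated ones. Among the EpiLC files only that of BPA replicate 2, the library with the fewest counts (11785338), holds this row. Library handling therefore cannot be told apart from the BPA arm in PGCLCs, nor from the stage. Of the 2 genes whose reporters were sorted, Prdm1 (Blimp1) averaged 152 ± 13.3 CPM in BPA PGCLCs, 191 ± 11.3 CPM in untreated PGCLCs, 11.4 ± 0.669 CPM in BPA EpiLCs and 10.5 ± 0.668 CPM in untreated EpiLCs (SD, n = 3 each). Dppa3 (Stella) averaged 218 ± 27.4 CPM in BPA PGCLCs, 234 ± 24.3 CPM in untreated PGCLCs, 16.0 ± 2.18 CPM in BPA EpiLCs and 17.2 ± 3.70 CPM in untreated EpiLCs (SD, n = 3 each). The summed CPM of 11 germ cell markers was 1170 to 1300 in BPA PGCLCs, 1410 to 1570 in untreated PGCLCs, 130 to 138 in BPA EpiLCs and 131 to 135 in untreated EpiLCs, and Prdm14 was unlisted in every EpiLC library. Markers of endoderm were also present in the sorted PGCLCs, at 5210 to 11000 summed CPM in the BPA arm and 916 to 1430 in untreated cells.

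Of the 9 genes, 7 were listed in all 12 libraries, Rnf43 in 10 and Sp5 in 5, all of these PGCLC libraries. Levels between genes were compared as mean CPM per kilobase of merged exons. In BPA and in untreated PGCLCs the repressor Tcf7l1 had the highest level per kilobase, at 44.1 ± 6.60 and 45.6 ± 2.73, followed by Tcf7 at 30.9 ± 2.26 and 23.3 ± 0.184 (SD, n = 3 each). In BPA and in untreated EpiLCs the order of these factors was the other way round, with Tcf7 at 38.6 ± 1.09 and 36.6 ± 2.90 per kilobase and Tcf7l1 at 14.8 ± 1.58 and 14.9 ± 1.35. Lef1 came next in BPA and in untreated EpiLCs, at 6.90 ± 0.377 and 6.96 ± 0.312 per kilobase.

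In BPA PGCLCs Tcf7l2 (4.77 ± 0.582 per kilobase), Znrf3 (4.54 ± 0.241) and Lef1 (3.81 ± 0.428) followed. Of these, Tcf7l2 and Znrf3 differed by less than the larger of their SDs, and Znrf3 and Lef1 by more. In untreated PGCLCs Znrf3 (4.61 ± 0.218 per kilobase) stood above Lef1 (2.62 ± 0.324) and Tcf7l2 (2.33 ± 0.318), of which Lef1 and Tcf7l2 differed by less than the larger SD. Axin2, Nkd1, Rnf43 and Sp5 were the lowest in PGCLCs, at 1.39, 0.931, 0.681 and 0.526 per kilobase in BPA cells and 1.30, 0.843, 0.407 and 0.455 per kilobase in untreated cells. Axin2 and Nkd1 differed by less than the larger SD in BPA PGCLCs and by more in untreated PGCLCs, and Rnf43 and Sp5 by less in both groups. In EpiLCs Tcf7l2 stood below Axin2 and Nkd1, with 0.843 per kilobase in BPA cells and 0.716 in untreated cells, against 1.71 and 1.62 for Axin2 and 2.14 and 2.09 for Nkd1.

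**Figure D1:**
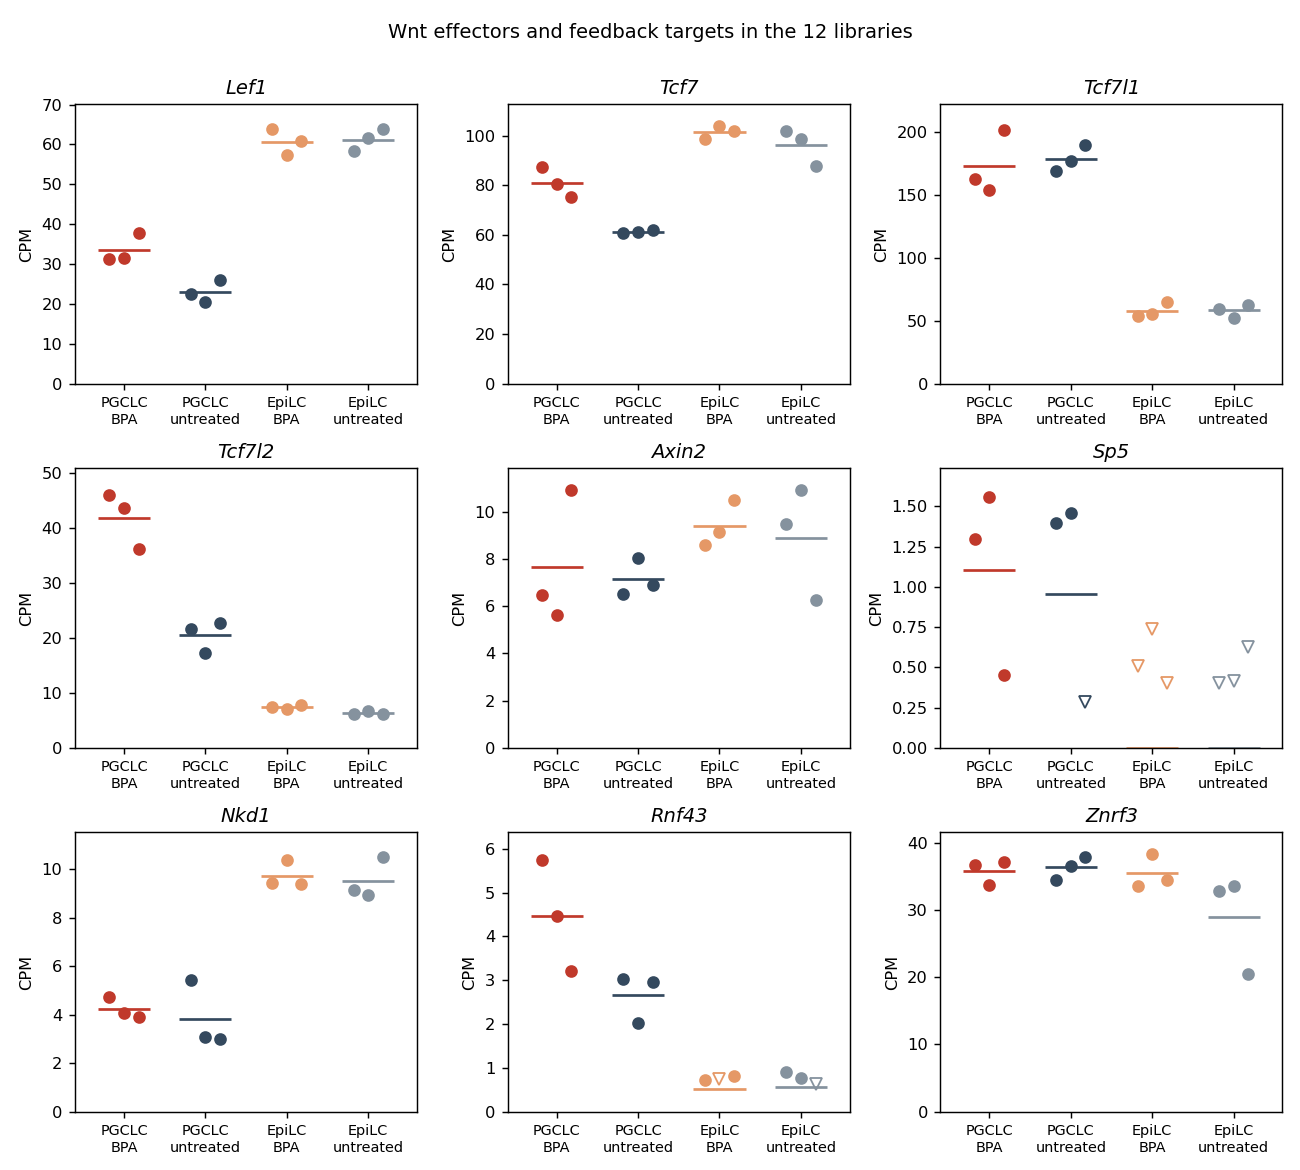
Level of each gene in CPM (y axis, linear from 0) in the 3 libraries of each group (points), with the group mean as a line; all 12 libraries share 1 scaling. Open triangles mark a library that does not list the gene, drawn at the most it can hold (9 counts), and such libraries enter the mean as 0. Tcf7l1, Tcf7l2 and Rnf43 stand higher in PGCLCs than in EpiLCs and Lef1, Tcf7 and Nkd1 lower.

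The effect of BPA was tested within each stage by edgeR's quasi-likelihood test, with Benjamini-Hochberg adjustment over all genes tested and a threshold of 0.05. In PGCLCs 3 of the 4 nuclear effectors were higher in the BPA arm, and none of the 9 genes was lower. Over all 16753 genes tested, 8.13% were called higher and 5.72% lower, and the quartiles of the log2 change were -0.26 and 0.32. The 4 factors had a median log2 change of 0.49, against 0.01 over all genes, and the 5 feedback targets a median of 0.16, with 0 of 5 called.

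Tcf7l2, the factor known for its role in the intestinal epithelium, had the widest difference of the 9 genes. Its level was 46.1, 43.8 and 35.8 CPM in BPA PGCLCs, against 21.3, 17.2 and 22.4 CPM in untreated PGCLCs. The groups do not overlap, and BPA replicate 3 is the lowest of its group. The log2 change was 1.05 ± 0.14 (SE), a 2.06-fold higher level, with adjusted p = 0.00471.

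Lef1, an activating factor of the epiblast and primitive streak, had 31.4, 31.7 and 37.6 CPM in BPA PGCLCs, against 22.3, 20.3 and 25.8 CPM in untreated PGCLCs. These groups do not overlap either, and here replicate 3 is the highest of each group. Lef1 was 1.47-fold higher, with a log2 change of 0.56 ± 0.13 (adjusted p = 0.0299).

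Tcf7, known from T cell development and expressed in stem cells, had 87.5, 81.1 and 74.7 CPM in BPA PGCLCs, against 60.4, 60.8 and 61.3 CPM in untreated PGCLCs. The untreated libraries lie close together and every BPA library is above them. Its log2 change was 0.42 ± 0.08, or 1.33-fold (adjusted p = 0.0163).

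Tcf7l1, the repressor, was not called. It had 164, 155 and 201 CPM in BPA PGCLCs, against 168, 176 and 189 CPM in untreated PGCLCs, and the groups overlap, with BPA replicate 3 above all others. The log2 change was -0.04 ± 0.10 (adjusted p = 0.875).

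The call for Tcf7l2 was made without each library in turn, with log2 changes of 0.93 to 1.15 and adjusted p of 0.00184 to 0.0275. For Lef1 and Tcf7 it was made only without BPA replicate 3 (log2 changes of 0.47 and 0.47, adjusted p = 0.0493 and 0.00473). Leaving out BPA replicate 1 or 2 or untreated replicate 1, 2 or 3 gave adjusted p of 0.0535 to 0.0972 for Lef1 and 0.0508 to 0.0926 for Tcf7, with 383 to 687 genes of the whole table called higher against 1362 with all libraries.

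Among the feedback targets, Rnf43 had the largest log2 change. Its level was 5.78, 4.49 and 3.17 CPM in BPA PGCLCs, against 3.01, 2.01 and 2.94 CPM in untreated PGCLCs. Every BPA library is above every untreated one, by little in the case of BPA replicate 3, and the log2 change of 0.75 ± 0.32 did not pass the test (adjusted p = 0.158).

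Axin2 had 6.49, 5.66 and 10.8 CPM in BPA PGCLCs, against 6.46, 7.97 and 6.86 CPM in untreated PGCLCs. The groups overlap and the highest value is BPA replicate 3. Its log2 change was 0.11 ± 0.27 (adjusted p = 0.849), and -0.22 without BPA replicate 3.

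Sp5 was close to the floor of the files, at 1.31, 1.57 and 0.449 CPM in BPA PGCLCs, against 1.39 and 1.45 CPM in untreated PGCLC replicates 1 and 2, with replicate 3 unlisted. It was low in replicate 3 of both groups, and its log2 change of 0.22 ± 1.29 was not called (adjusted p = 0.941).

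Nkd1 had 4.76, 4.12 and 3.87 CPM in BPA PGCLCs, against 5.41, 3.06 and 2.97 CPM in untreated PGCLCs, so that untreated replicate 1 is above all BPA libraries. Znrf3 had 36.8, 33.9 and 36.9 CPM in BPA PGCLCs, against 34.3, 36.4 and 37.6 CPM in untreated PGCLCs, with overlapping groups and small spread. The log2 changes were 0.16 ± 0.30 for Nkd1 (adjusted p = 0.810) and -0.01 ± 0.09 for Znrf3 (adjusted p = 0.969).

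In EpiLCs, 0 of the 8 genes tested were called, as were 0 of all 15252 genes tested (0%) by edgeR. Of those genes 118 had an unadjusted p under 0.05 by edgeR, a smaller share than the 0.05 that a test gives where nothing differs. The edgeR test was thus a strict 1 in EpiLCs. DESeq2 called 16 genes, none of them among the 9. The factor with the largest change was again Tcf7l2, with 7.46, 7.15 and 7.78 CPM in BPA EpiLCs, against 6.20, 6.61 and 6.00 CPM in untreated EpiLCs. These groups do not overlap, and the log2 change was 0.25 ± 0.12 (unadjusted p = 0.0661 by edgeR, adjusted p = 0.943).

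Lef1 had 64.3, 57.8 and 61.5 CPM in BPA EpiLCs, against 58.9, 61.7 and 62.5 CPM in untreated EpiLCs, and the groups overlap (log2 change 0.00 ± 0.10). Tcf7 had 99.1, 105 and 103 CPM in BPA EpiLCs, against 103, 99.0 and 85.9 CPM in untreated EpiLCs (0.09 ± 0.11). Tcf7l1 had 54.2, 55.9 and 65.9 CPM in BPA EpiLCs, against 60.1, 52.7 and 61.6 CPM in untreated EpiLCs (0.01 ± 0.13). For these 3 factors the BPA and untreated values interleave.

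Znrf3 had 33.8, 38.6 and 34.8 CPM in BPA EpiLCs, against 33.2, 33.6 and 20.1 CPM in untreated EpiLCs, where replicate 3 is far below the others. Its log2 change was 0.30 ± 0.21 (adjusted p = 0.943), and 0.09 without untreated replicate 3. Axin2 had 8.64, 9.22 and 10.6 CPM in BPA EpiLCs, against 9.60, 11.0 and 6.14 CPM in untreated EpiLCs, with replicate 3 again the lowest (0.08 ± 0.22). Without that library the Axin2 value was -0.12. The ligase gene Rnf43 was listed in 2 of 3 libraries of each EpiLC group, at 0.734 and 0.819 CPM in BPA cells and 0.905 and 0.780 CPM in untreated cells (log2 change -0.10 ± 1.39). Nkd1 had 9.49, 10.6 and 9.51 CPM in BPA EpiLCs, against 9.24, 8.99 and 10.3 CPM in untreated EpiLCs, which overlap (0.05 ± 0.12), and Sp5 was unlisted in all 6 libraries and not tested.

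**Figure D2:**
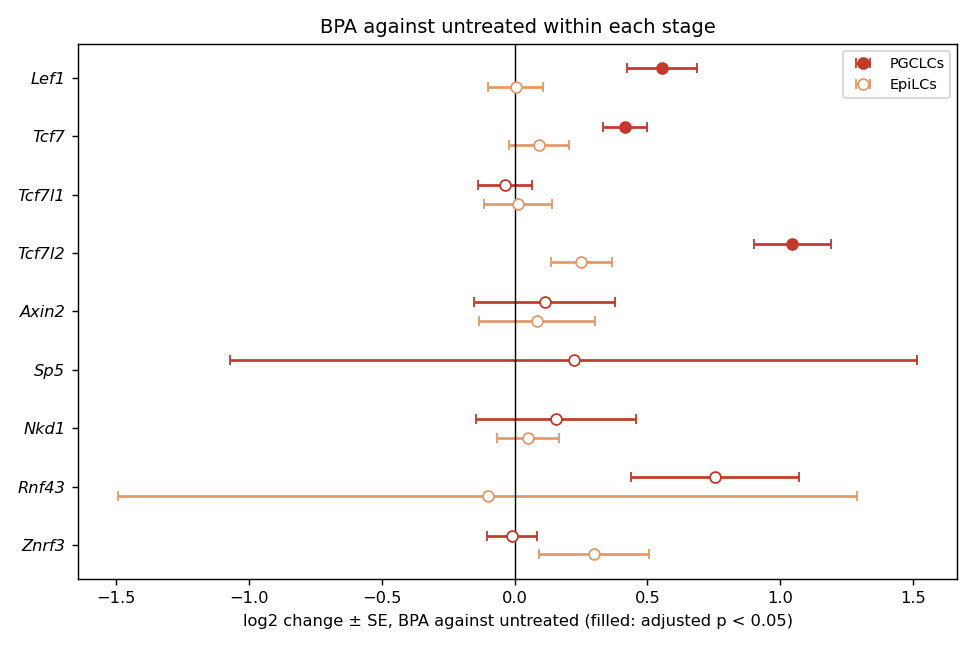
Change on the log2 scale of BPA against untreated cells (x axis) for each gene, in PGCLCs and in EpiLCs, with bars of 1 SE; filled points passed the test. Tcf7l2, Lef1 and Tcf7 pass in PGCLCs at 1.05, 0.56 and 0.42, and no point passes in EpiLCs.

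Whether the BPA difference itself differed between the stages was tested as an interaction over all 12 libraries, in which 1.32% of 17608 genes were called in either direction and 0 of the 9 genes. The interaction was 0.80 ± 0.20 for Tcf7l2 on the log2 scale (adjusted p = 0.0816), 0.56 ± 0.17 for Lef1 (adjusted p = 0.145) and 0.33 ± 0.13 for Tcf7 (adjusted p = 0.269). For Tcf7l1 it was -0.05 ± 0.18 and for Znrf3 -0.31 ± 0.23. For Sp5, which no EpiLC library lists, the interaction could not be estimated (0.21 ± 370). The call depends on the tool and on single libraries: DESeq2 called Tcf7l2, Lef1 and Tcf7 (adjusted p = 0.0181, 0.0269 and 0.0474), edgeR called Tcf7l2 and Tcf7 without untreated EpiLC replicate 3 (adjusted p = 0.0460 and 0.0390) and Tcf7l2 without BPA PGCLC replicate 3 (adjusted p = 0.0212).

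Between the stages the members split. In untreated cells Tcf7l1, Tcf7l2 and Rnf43 were higher in PGCLCs and Lef1, Tcf7 and Nkd1 lower, while Axin2 and Znrf3 were not called. Sp5 passed the filter on low counts through PGCLCs alone, and it was called higher only as long as unlisted libraries were taken as 0. This comparison called 30.4% of 17608 genes higher and 25.2% lower, so a call here is common. The stage means below use 1 scaling for all 12 libraries and differ slightly from the values within a stage.

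Tcf7l1 averaged 179 ± 10.7 CPM in untreated PGCLCs and 58.3 ± 5.29 CPM in untreated EpiLCs (SD, n = 3 each), 3.07-fold higher (log2 change 1.62 ± 0.13, adjusted p = 8.30e-07). Tcf7l2 averaged 20.5 ± 2.79 CPM in untreated PGCLCs and 6.28 ± 0.260 CPM in untreated EpiLCs, 3.25-fold higher (1.70 ± 0.14, adjusted p = 1.37e-06). In both genes each PGCLC library was above each EpiLC library.

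The 2 activating factors went the other way. Lef1 averaged 23.0 ± 2.85 CPM in untreated PGCLCs and 61.2 ± 2.74 CPM in untreated EpiLCs, a log2 change of -1.41 ± 0.12 (adjusted p = 1.54e-06). Tcf7 averaged 61.2 ± 0.483 CPM in untreated PGCLCs and 96.2 ± 7.60 CPM in untreated EpiLCs, a log2 change of -0.65 ± 0.09 (adjusted p = 7.82e-05). The groups do not overlap for either gene.

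Among the feedback targets, Nkd1 averaged 3.84 ± 1.39 CPM in untreated PGCLCs and 9.54 ± 0.848 CPM in untreated EpiLCs (log2 change -1.31 ± 0.23, adjusted p = 0.000453). Rnf43 averaged 2.67 ± 0.563 CPM in untreated PGCLCs and 0.558 ± 0.487 CPM in untreated EpiLCs with its unlisted library at 0, and the log2 change of 2.19 ± 0.85 passed narrowly (adjusted p = 0.0465). Sp5 was at least 1.99-fold higher in untreated PGCLCs, at 0.955 CPM on average with its unlisted library at 0, against at most 0.481 CPM in untreated EpiLCs, where 9 counts were put in each library. Its test gave adjusted p = 0.0253 with unlisted libraries at 0, and was not passed with them at 9 counts (log2 change 1.38, adjusted p = 0.0614). Axin2 averaged 7.15 ± 0.788 CPM in untreated PGCLCs and 8.90 ± 2.39 CPM in untreated EpiLCs (log2 change -0.32 ± 0.26, adjusted p = 0.316), and Znrf3 averaged 36.4 ± 1.72 CPM in untreated PGCLCs and 29.0 ± 7.31 CPM in untreated EpiLCs (0.32 ± 0.16, adjusted p = 0.105). The call for Rnf43 was lost in 15 of 19 alternative settings, among them the removal of any 1 library other than BPA EpiLC replicate 2 (adjusted p of 0.0512 to 0.0846). That for Sp5 was lost in 6 of 18, which were the 9 counts for unlisted genes, a fit with the replicate number as a block (adjusted p = 0.0581) and the removal of untreated PGCLC replicate 1 or 2 or untreated EpiLC replicate 1 or 2 (adjusted p of 0.0533 to 0.0586). The other 5 genes called kept their call in all 19. Without untreated EpiLC replicate 3 the log2 changes of Axin2 and Znrf3 were -0.56 and 0.08, neither called.

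In BPA cells the same genes were called in the same direction between the stages, Sp5 again with unlisted libraries at 0, in a comparison that called 32.5% of genes higher and 25% lower. Tcf7l2 averaged 41.8 ± 5.10 CPM in BPA PGCLCs and 7.40 ± 0.315 CPM in BPA EpiLCs (log2 change 2.50 ± 0.14, adjusted p = 5.65e-08). Tcf7l1 averaged 173 ± 25.9 CPM in BPA PGCLCs and 58.1 ± 6.19 CPM in BPA EpiLCs (1.57 ± 0.13, adjusted p = 8.51e-07). Lef1 averaged 33.5 ± 3.76 CPM in BPA PGCLCs and 60.7 ± 3.31 CPM in BPA EpiLCs (-0.86 ± 0.12, adjusted p = 6.48e-05). Tcf7 averaged 81.0 ± 5.94 CPM in BPA PGCLCs and 101 ± 2.86 CPM in BPA EpiLCs (-0.32 ± 0.09, adjusted p = 0.00859). When unlisted genes were set to 9 counts in place of 0, the log2 change of Tcf7 became -0.04 and was not called. Tcf7 is listed in all 12 libraries, so that setting acts on it only through the other genes of the fit. Nkd1 was lower in BPA PGCLCs (-1.20 ± 0.23), Rnf43 was higher (3.02 ± 0.88, adjusted p = 0.0113) and Sp5 was at least 2.01-fold higher. The test of Sp5 gave adjusted p = 0.0240 with unlisted libraries at 0, and was not passed with them at 9 counts (1.33, adjusted p = 0.0710). The call was also lost without BPA PGCLC replicate 1 or 2 or any 1 of the BPA EpiLC libraries (adjusted p of 0.0511 to 0.0601). Axin2 (-0.29 ± 0.26) and Znrf3 (0.02 ± 0.16) were not called, and Axin2 was called lower without BPA PGCLC replicate 3 (-0.64, adjusted p = 0.0371). The stage comparisons set different libraries against each other, but come from the same fit of all 12 libraries. They share its filter, scaling and estimate of spread, so they are not independent. Each also shares its PGCLC libraries with the BPA comparison in PGCLCs and its EpiLC libraries with that in EpiLCs.

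**Figure D3:**
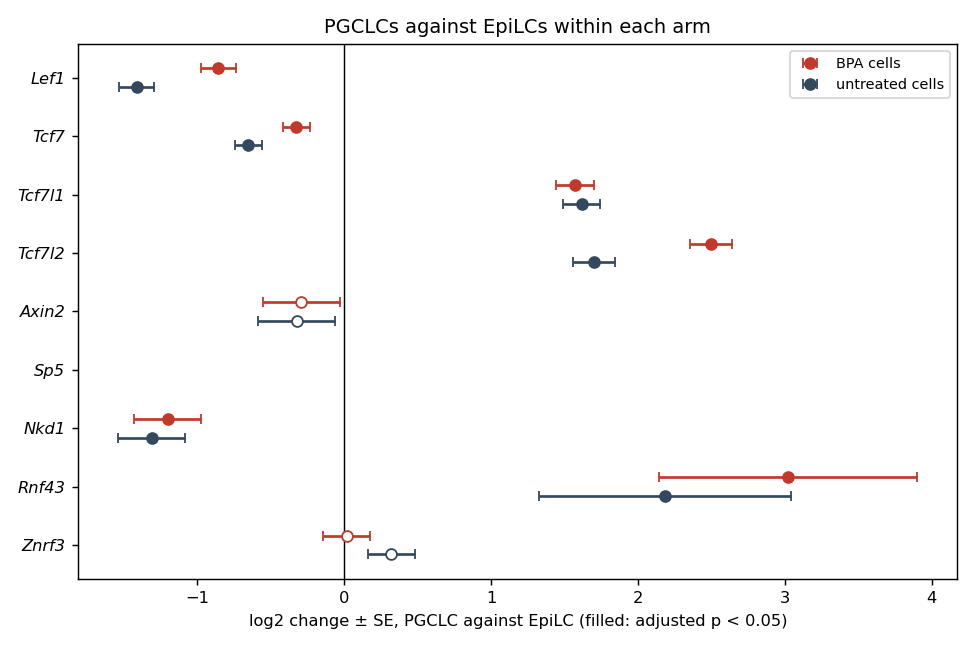
Change on the log2 scale of PGCLCs against EpiLCs (x axis) in BPA cells and in untreated cells, with bars of 1 SE; filled points passed the test. Sp5 has no point because no EpiLC library lists it. Tcf7l1, Tcf7l2 and Rnf43 lie right of 0 and Lef1, Tcf7 and Nkd1 left of it in both arms.

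In the rest of the pathway, the share called higher with BPA in PGCLCs was close to that of all genes. Of 84 other Wnt pathway and target genes tested, in 7 lists, 7 were higher (8.33%) and 2 lower (2.38%), shares set against 8.13% and 5.72% of all genes. Among the 13 ligand genes tested, 0 were higher and 1 was lower, with a median log2 change of 0.08. That gene was Wnt7b, a canonical ligand of trophoblast and epithelia, at 21.8, 21.6 and 14.9 CPM in BPA PGCLCs, against 31.5, 31.5 and 49.9 CPM in untreated PGCLCs (log2 change -0.96 ± 0.22, adjusted p = 0.0295). The groups do not overlap, and the call was lost in 8 of 14 alternative settings, the removal of any 1 library among them.

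Of 15 receptor genes 2 were higher and 0 lower, with a median of 0.16. Lrp5, a Wnt co-receptor, had 225, 229 and 147 CPM in BPA PGCLCs, against 116, 119 and 113 CPM in untreated PGCLCs (0.79 ± 0.16, adjusted p = 0.0165). Its BPA libraries are all above the untreated ones, with replicate 3 nearest to them. The Frizzled gene Fzd6 had a log2 change of 0.52 ± 0.12 (adjusted p = 0.0290).

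Among the secreted inhibitors Sfrp5 stood out. The gene, whose product binds Wnt ligands and which marks anterior endoderm in the mouse, had 118, 115 and 21.6 CPM in BPA PGCLCs, against 3.04, 1.67 and 1.93 CPM in untreated PGCLCs. Every BPA library was above every untreated one, and BPA replicate 3 was far below the other 2. The log2 change was 5.26 ± 0.67, or 38.4-fold (adjusted p = 0.00352). It was 1 of 10 inhibitor genes tested that was higher, with 0 lower and a median log2 change of -0.24.

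In the group of Wnt secretion and R-spondin genes, 0 of 7 were higher and 1 was lower. This was Lgr4, a receptor for R-spondins (-0.33 ± 0.07, adjusted p = 0.0231), at 143, 143 and 142 CPM in BPA PGCLCs, against 198, 171 and 171 CPM in untreated PGCLCs. Of 14 genes of β-catenin and the destruction complex 2 were higher and 0 lower. They were Dvl1, which carries the signal from Frizzled (0.59 ± 0.11, adjusted p = 0.0157), and the tankyrase gene Tnks, whose product marks Axin for degradation (0.70 ± 0.14, adjusted p = 0.0196). Of 14 TCF cofactor genes 0 were called, the smallest p belonging to the β-catenin adaptor gene Bcl9l (0.38 ± 0.11, adjusted p = 0.0529).

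Other Wnt targets were higher in 2 and lower in 0 of 14 genes tested, with a median log2 change of -0.03. Cdx2, a caudal factor that is also a trophoblast marker, had 4.67, 4.08 and 3.54 CPM in BPA PGCLCs, against 0.791, 0.958 and 1.99 CPM in untreated PGCLCs (1.71 ± 0.42, adjusted p = 0.0329). Mixl1, a primitive streak gene, had 14.8, 15.3 and 0.589 CPM in BPA PGCLCs, against a value of 0.632 CPM in untreated replicate 3 and none listed in replicates 1 and 2. These groups overlap through the third library of each, and the call (adjusted p = 0.0412) was lost in 7 of 14 alternative settings. The primitive streak gene T, named here after its values were seen and known as a target of Wnt in the embryo, was listed in 1 library of each PGCLC group, at 0.449 CPM in BPA and 0.433 CPM in untreated cells.

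Most of these calls were lost when single libraries were left out, and some with all libraries kept. A single fit of all 12 libraries did not call Wnt7b (adjusted p = 0.158), Fzd6 (0.0786), Lgr4 (0.295) or Tnks (0.201). DESeq2 did not call Mixl1 (adjusted p = 0.0853). A fit with the replicate number as a block did not call Wnt7b (adjusted p = 0.0616), Cdx2 (0.0613) or Mixl1 (0.140). Without BPA replicate 1 or without BPA replicate 2, none of Wnt7b, Lrp5, Fzd6, Lgr4, Dvl1, Tnks, Cdx2 and Mixl1 was called, and Sfrp5 was. Without untreated replicate 1, 2 or 3, 6, 6 and 7 of these 8 genes were not called, while Sfrp5 kept its call without each library in turn. Without BPA replicate 3, Wnt7b was the only 1 of the 8 not called. The log2 change kept its sign throughout, at 0.68 to 0.97 for Lrp5, -1.08 to -0.71 for Wnt7b and 2.49 to 11.30 for Mixl1 over all 14 settings.

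A list of 8 pluripotency genes that Tcf7l1 is known to repress in mouse stem cells held naive genes and the core factor Pou5f1. Of these 8, 0 were higher and 5 lower in the BPA arm, with a median log2 change of -0.42. Over all genes 8.13% were higher and 5.72% lower, with a median of 0.01. Nr0b1 had 38.4, 39.8 and 51.8 CPM in BPA PGCLCs, against 104, 84.0 and 74.1 CPM in untreated PGCLCs (-1.01 ± 0.16, adjusted p = 0.00731). Pou5f1, the core pluripotency factor, fell by 0.59 on the log2 scale (adjusted p = 0.00136), Esrrb by 0.39 (adjusted p = 0.00476) and Tfcp2l1 by 0.45 (adjusted p = 0.0120). Pou5f1, Esrrb and Nr0b1 were called in all 14 alternative settings, and Tfcp2l1 was not called without untreated replicate 3 (adjusted p = 0.0510) nor in a single fit of all 12 libraries (adjusted p = 0.220). In bulk RNA, fewer cells of a type and less RNA per cell cannot be told apart.

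**Figure D4:**
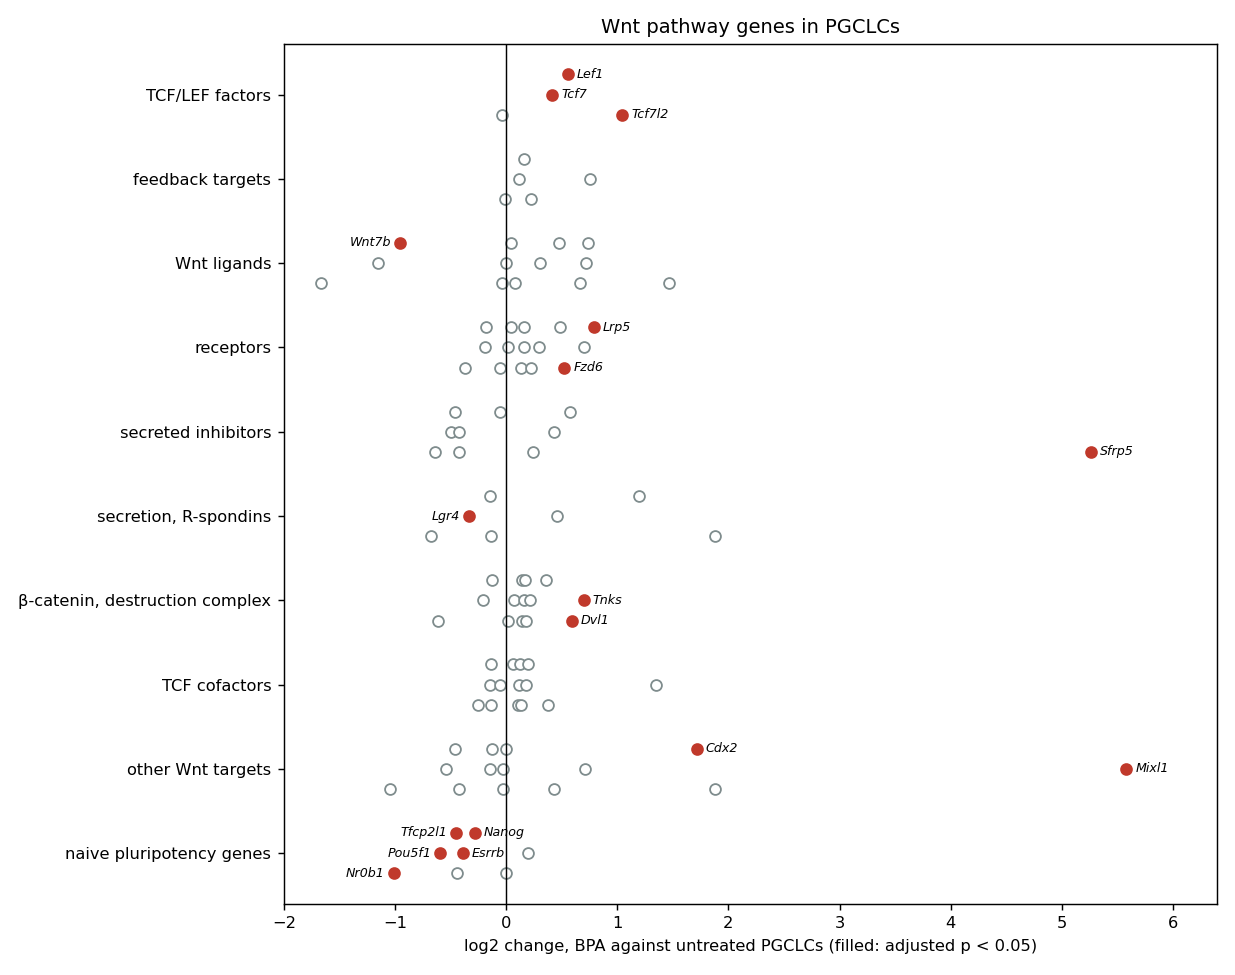
Change on the log2 scale in BPA against untreated PGCLCs (x axis) for every tested gene of each list (rows), with called genes filled and named. The TCF/LEF factors Lef1, Tcf7 and Tcf7l2 lie right of 0, and Sfrp5 and Mixl1 stand far from the other genes at 5.26 and 5.58.

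Summed CPM of endoderm, trophoblast, epiblast and germ cell markers did not overlap between the arms of PGCLCs. The germ cell sums were 1170 to 1300 CPM in BPA PGCLCs, against 1410 to 1570 CPM in untreated PGCLCs. The share of all genes without overlap was not computed. The mesoderm sums overlapped, as did those of blood and endothelial markers. The summed CPM of 14 endoderm markers was 10400, 11000 and 5210 in BPA PGCLCs, against 1430, 1030 and 916 in untreated PGCLCs. Of the 14 genes 8 were called higher and 0 lower, beside 8.13% and 5.72% of all genes tested. None of the 14 was unlisted in either PGCLC group. Trophoblast markers summed to 513 to 801 CPM in BPA PGCLCs, against 348 to 416 CPM in untreated PGCLCs. Mesoderm markers summed to 150 to 208 CPM in BPA PGCLCs, against 142 to 173 CPM in untreated PGCLCs. Blood and endothelial markers summed to 206 to 242 CPM in BPA PGCLCs, against 204 to 222 CPM in untreated PGCLCs, which do not list Hbb-y. Epiblast markers gave 670 to 825 CPM in BPA PGCLCs, against 864 to 887 CPM in untreated PGCLCs. Of 8 trophoblast markers tested 3 were called higher and 1 lower. Mesoderm markers had 1 higher and 1 lower of 6, and epiblast markers 1 higher and 1 lower of 9. Of 11 germ cell markers 0 were higher and 4 lower, and 0 of 6 blood and endothelial markers were called.

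The endoderm sum of BPA replicate 3 was lowest of the BPA libraries. Of the members, Tcf7l2, Tcf7, Rnf43, Sp5 and Nkd1 were also lowest there, while Lef1, Tcf7l1, Axin2 and Znrf3 were highest. Of the other Wnt genes called with BPA in PGCLCs, Wnt7b, Lrp5, Sfrp5, Lgr4, Dvl1, Tnks, Cdx2 and Mixl1 were lowest there. Fzd6 lay between the other BPA libraries. A link of these genes to the endoderm sum was not tested, nor was the share of all genes lowest in this library. The part of cells other than germ cells in the changes of Tcf7l2, Lef1 and Tcf7 was not tested. In EpiLCs the endoderm sum was 24.3 to 25.6 CPM with BPA, against 19.8 to 27.7 CPM in untreated cells, and Afp, Ttr, Sox17, Gata6 and Hnf4a were unlisted in both groups.

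**Figure D5:**
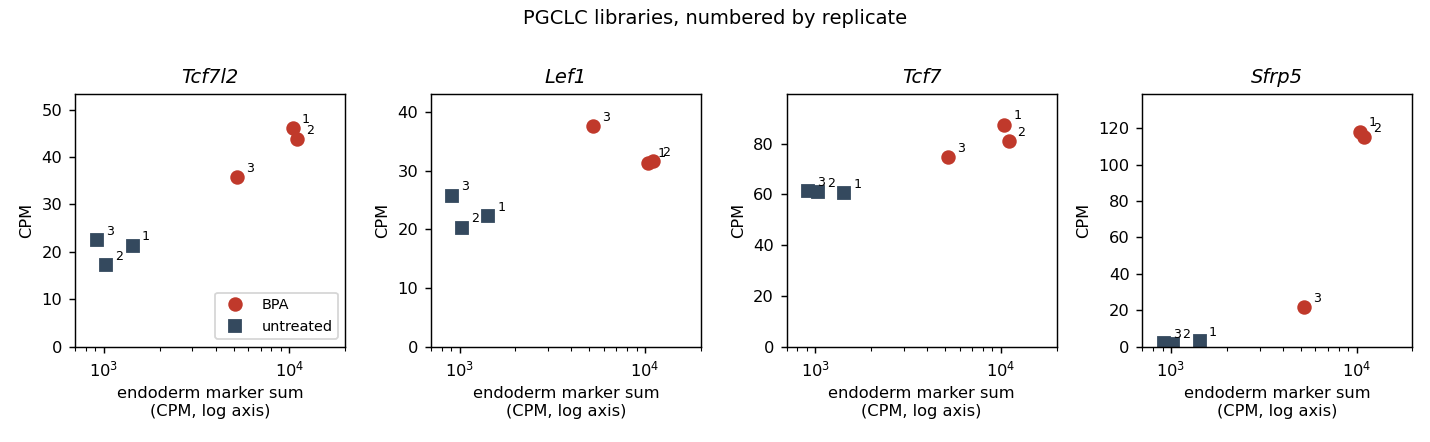
Level of Tcf7l2, Lef1, Tcf7 and Sfrp5 in CPM (y axis, linear from 0) against the summed CPM of 14 endoderm markers (x axis, log scale) in the 6 PGCLC libraries, numbered by replicate. BPA libraries lie at 5210 to 11000 and untreated libraries at 916 to 1430 on the x axis; Lef1 is highest in BPA replicate 3, the other 3 genes lowest there among BPA libraries.

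In untreated cells 40 of 90 pathway and target genes tested were higher (44.4%) and 18 lower (20%) in PGCLCs, against 30.4% and 25.2% of all genes. Ligand genes were higher in 6 and lower in 2 of 14 cases. Wnt7b averaged 37.9 ± 10.7 CPM in untreated PGCLCs and was listed in 1 untreated EpiLC library, at 0.717 CPM. Wnt9b and Wnt5a, unlisted in all 3 untreated EpiLC libraries, were at least 10.7-fold and at least 7.55-fold higher. They passed the filter on low counts through PGCLCs alone, as did the inhibitor genes Dkk1 and Frzb, and all of these are counted among the higher genes. Their calls were kept with unlisted genes at 9 counts. The epiblast ligand gene Wnt8a went the other way, with 0.449 ± 0.505 CPM in untreated PGCLCs and 10.4 ± 0.320 CPM in untreated EpiLCs.

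In the list of Wnt secretion and R-spondin genes, 3 of 8 were higher and 2 lower. Porcn, the acyltransferase that lipidates Wnt proteins, averaged 72.7 ± 6.87 CPM in untreated PGCLCs and 5.45 ± 1.39 CPM in untreated EpiLCs (log2 change 3.75 ± 0.17, adjusted p = 7.81e-09), and Wls, which carries Wnt proteins to the cell surface, had a log2 change of 1.71 ± 0.12. Rspo1, coding for an R-spondin, was lower (-5.21 ± 1.05), and its relative Rspo4 was at least 4.67-fold lower.

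Receptor genes were higher in 7 and lower in 3 of 15 cases, among them Fzd5 (2.18 ± 0.15), Ror2 (1.11 ± 0.17) and Fzd7 (0.93 ± 0.13) higher and Fzd9 (-1.91 ± 0.28) lower. Secreted inhibitors were higher in 6 and lower in 1 of 11 cases. Dkk1, which blocks Lrp co-receptors, averaged 22.1 ± 5.40 CPM in untreated PGCLCs and was unlisted in untreated EpiLCs, a level at least 45.9-fold higher. Frzb was at least 8.92-fold higher, and Notum, which removes the lipid from Wnt proteins, averaged 6.41 ± 1.44 CPM in untreated PGCLCs and 0.931 ± 0.282 CPM in untreated EpiLCs (2.80 ± 0.52). Sfrp2 was the gene of this list that was lower (-1.52 ± 0.19).

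Of 14 genes of β-catenin and the destruction complex 8 were higher and 3 lower, with the kinase genes Gsk3b (1.48 ± 0.18) and Csnk1a1 (0.85 ± 0.12) and Dvl2 (0.73 ± 0.09) higher and Dvl1 (-1.34 ± 0.11) lower. TCF cofactors were higher in 8 and lower in 2 of 14 cases. Bcl9l (2.30 ± 0.18) and the Groucho corepressor genes Tle3 (1.29 ± 0.11) and Tle1 (0.76 ± 0.11) were higher, and the corepressor gene Ctbp1 (-0.64 ± 0.11) was lower.

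Of 17 other Wnt targets 4 were higher and 5 lower, in a comparison that called 30.4% of all genes higher and 25.2% lower. Myc had 22.9 to 28.0 CPM in untreated PGCLCs and 135 to 185 CPM in untreated EpiLCs (log2 change -2.64 ± 0.14, adjusted p = 3.09e-08), and the cyclin gene Ccnd1 had a log2 change of -2.42 ± 0.16. Tbx3, which also stands in the naive list, averaged 166 ± 14.9 CPM in untreated PGCLCs and 0.543 ± 0.472 CPM in untreated EpiLCs. The list of naive genes and Pou5f1 had 7 higher and 1 lower of 8, and the lower gene was Pou5f1. Esrrb stood at 5.74 ± 0.13, Nanog at 4.78 ± 0.15 and Nr0b1 at 4.15 ± 0.21 on the log2 scale. Tcf7l1 itself was 3.07-fold higher in those cells. The lists were named from general knowledge but with earlier results of these data known, and a gene can be regulated by other pathways as well.

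Genes whose log2 level ran closest to that of a member over the 12 libraries were ranked by the root mean square difference after centring each gene on its own mean, among 4058 candidate genes. For Lef1 these were Gnpat (0.14), E2f4 (0.14) and B4galt2 (0.15), beside an SD of 0.64 for Lef1 itself. For Axin2 they were Zfhx3 (0.28), Slfn9 (0.28) and Zc3h12c (0.29), beside an SD of 0.34 for Axin2. For Sp5 they were Mical2 (0.70), Cd55 (0.81) and Dgkk (0.81), beside an SD of 2.07 that rests on the unlisted libraries. The 12 points share 4 groups and the difference between stages.

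Exons of Lef1, Tcf7l1 and Axin2 overlap an annotated antisense gene, and no source used here says whether reads were counted by strand. The antisense gene Gm43352 held up to 3.50% of the counts of Lef1 in any library and Gm15401 up to 0.264% of those of Tcf7l1, while Gm11670, which overlaps Axin2, is not listed. In mm10 coordinates with GENCODE M21, the factor genes lie at chromosome 3, 131110471 to 131224356 (Lef1, ENSMUSG00000027985), chromosome 11, 52252371 to 52283014 (Tcf7, ENSMUSG00000000782), chromosome 6, 72626378 to 72789254 (Tcf7l1, ENSMUSG00000055799) and chromosome 19, 55741820 to 55933654 (Tcf7l2, ENSMUSG00000024985). The target genes lie at chromosome 11, 108920349 to 108950783 (Axin2, ENSMUSG00000000142), chromosome 2, 70474923 to 70477729 (Sp5, ENSMUSG00000075304), chromosome 8, 88521354 to 88594884 (Nkd1, ENSMUSG00000031661), chromosome 11, 87662722 to 87735539 (Rnf43, ENSMUSG00000034177) and chromosome 11, 5276324 to 5444847 (Znrf3, ENSMUSG00000041961).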

How the data were processed

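Strand-specific mRNA libraries from 12 samples in 4 groups of 3 were grouped by their titles. Per the submitters' processing notes, reads were handled with bcl2fastq 2.19.1.403, FastQC, STAR and HTSeq on mm10, with no versions for the last 3 tools and no record of whether reads were counted by strand. The deposited count files hold whole read counts per Ensembl gene, with rows of 10 or more counts only, and 2 deposited tables give CPM for the libraries of each stage, equal to the counts divided by 1 constant per library. Summary rows that name no gene (4.42% to 10.7% of counts without a feature, 4.35% to 6.07% ambiguous) were left out of library sizes. Unlisted genes were taken as 0 counts, with 9 as their upper limit.

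Counts were filtered with filterByExpr (minimum count 10), scaled by TMM and tested with edgeR 4.0.16 (R 4.3.3) by its quasi-likelihood test, with Benjamini-Hochberg adjustment over all genes tested and a threshold of 0.05. BPA was tested within each stage over 6 libraries, and stage and interaction in a fit of 12 libraries with its own scaling. The SE of a log2 change is its size divided by the square root of F. Lower bounds put 9 counts in each unlisted library. Levels per kilobase use merged exons of GENCODE M21. The script was tested on simulated data. Alternatives were RLE size factors, library size alone, no filter, a replicate block, 9 counts for unlisted genes, DESeq2 1.42.0, a single fit of 12 libraries or a fit of 2 groups, each library left out in turn, and limma-trend (limma 3.58.1) on log2 of the deposited CPM plus 1. Same-numbered libraries of the groups compared did not deviate together, so numbers were not taken as pairs.

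Genes named from the other Wnt lists were up to 4 per comparison that passed with the smallest p, or the 1 with the smallest p. Markers were given as sums and counts, with Prdm1 and Dppa3. Results of 1 marker list are not reported here. Likeness was ranked among protein-coding genes that averaged 5 CPM or more and had an SD of 0.5 or more on the log2 scale. Members and lists were chosen with earlier results of these data known.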

Additional observations from a re-analysis of the deposited data

Results flagged for a closer look

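For Sfrp5, a secreted Wnt inhibitor, the difference between BPA and untreated libraries was larger in PGCLCs than in EpiLCs, and this was tested as an interaction. The interaction was 5.02 ± 0.86 on the log2 scale (edgeR, adjusted p = 0.0154). Sfrp5 had 118, 115 and 21.6 CPM in BPA PGCLCs, against 3.04, 1.67 and 1.93 CPM in untreated PGCLCs. In EpiLCs it had 1.41, 1.41 and 1.68 CPM with BPA, against 1.27, 1.24 and 1.36 CPM in untreated cells. The call was kept in 16 of 18 alternative settings and lost without untreated EpiLC replicate 1 or without BPA EpiLC replicate 1, with adjusted p of at most 0.0540. The endoderm marker sum was 10400, 11000 and 5210 CPM in BPA PGCLCs, against 1430, 1030 and 916 CPM in untreated PGCLCs. The part of endoderm cells in the Sfrp5 difference was not tested. Library handling cannot be told apart from the BPA arm in PGCLCs, and only PGCLCs were sorted.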

How the results depend on the processing

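In PGCLCs, 3 of the 9 genes were called higher with BPA in each of the 8 alternatives that kept all libraries, and 1 to 3 when a library was left out. Genes of the whole table called higher then numbered 383 to 1935 and lower 268 to 1271. With all libraries, the lower calls were 597 under the replicate block, 1458 by DESeq2 and 548 in a single fit of 12 libraries, against 959 as reported. In EpiLCs, DESeq2 called 4 genes higher and 12 lower. Between the stages in untreated cells, members called higher were 2 under the replicate block and 2 in the fit of the untreated groups alone, and 2 to 4 with a library left out. The interaction gave 31 lower calls under the replicate block, 447 higher calls with unlisted genes at 9 counts, and 627 higher, 273 lower and 3 member calls by DESeq2, against 177 higher, 55 lower and 0 members. Leaving out a library gave 68 to 592 higher, 15 to 304 lower and 0 to 2 member calls. With unlisted genes at 9 counts Znrf3 was called higher in untreated PGCLCs against untreated EpiLCs (0.556, adjusted p = 0.0103). The causes were not tested.

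Several uncalled changes near 0 turned sign. For BPA in EpiLCs, Lef1 was -0.00935 with RLE size factors, -0.00695 by DESeq2 and -0.0114 in the fit of 12 libraries, and Tcf7l1 was -0.000155 with RLE size factors and -0.00158 in that fit. For BPA in PGCLCs, Znrf3 was 1.64e-05 with no filter. Between the stages in BPA cells, Znrf3 was -0.0463 with RLE size factors, -0.00490 with library size alone and -0.0459 by DESeq2. The Sp5 interaction cannot be estimated, because no EpiLC library lists Sp5. It was 0.21 ± 370 (SE) with unlisted libraries at 0, and -0.0543 with unlisted genes at 9 counts. With a library left out, the EpiLC changes were -0.0310 to 0.0442 for Lef1, -0.0834 to 0.0699 for Tcf7l1, -0.116 to 0.259 for Axin2 and -0.644 to 0.436 for Rnf43. The PGCLC changes were -0.223 to 0.290 for Axin2, -0.00654 to 0.481 for Nkd1, -0.377 to 0.653 for Sp5, -0.157 to 0.0395 for Tcf7l1 and -0.0580 to 0.0307 for Znrf3. Between the stages in BPA cells Znrf3 was -0.0198 to 0.0598. The interaction was -0.314 to 0.253 for Axin2, -0.0402 to 0.448 for Nkd1 and -0.174 to 0.0461 for Tcf7l1. The fits gave -0.374 to 0.652 for Sp5, which is no measure of an interaction for the reason given above.

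Same-numbered libraries correlated at -0.0214 to 0.0566 in their deviations from group means, so the replicate block rests on numbers alone. Under it the stage calls of Rnf43 and Sp5 in untreated cells were lost (adjusted p = 0.0715 and 0.0581). The alternatives for the wider Wnt lists were chosen after seeing the data. A gene that a library does not list can hold up to 0.764 CPM, so a fold against EpiLCs is limited by depth for Sp5, unlisted in all of them, and for Rnf43, unlisted in 2.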

Other observations

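In the BPA arm the wider Wnt lists also differed between the stages: 44 of 90 genes tested were higher (48.9%) and 19 lower (21.1%) in BPA PGCLCs than in BPA EpiLCs, against 32.5% higher and 25% lower of all genes tested. Secreted inhibitors were higher in 8 and lower in 3 of 11 cases. Sfrp5 averaged 84.6 ± 54.5 CPM in BPA PGCLCs and 1.49 ± 0.154 CPM in BPA EpiLCs (SD, n = 3 each), with a log2 change of 5.81 ± 0.59 (edgeR, adjusted p = 5.86e-06). Dkk1 was at least 28.8-fold and Frzb at least 4.95-fold higher. Both are unlisted in BPA EpiLCs and passed the filter on low counts through PGCLCs alone. Sfrp2 was lower, at 4.15 ± 1.31 CPM in BPA PGCLCs and 17.2 ± 0.139 CPM in BPA EpiLCs.

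The ligand gene Wnt4 averaged 6.68 ± 0.934 CPM in BPA PGCLCs and 0.442 ± 0.397 CPM in BPA EpiLCs, where 2 of 3 libraries list it. Lrp5 averaged 200 ± 45.2 CPM in BPA PGCLCs and 86.6 ± 2.68 CPM in BPA EpiLCs (log2 change 1.21 ± 0.18). Lgr5, a receptor for R-spondins and itself a Wnt target, was at least 2.59-fold higher in BPA PGCLCs, with 1.20, 1.30 and 1.78 CPM and no BPA EpiLC library listing it. Other Wnt targets were higher in 6 and lower in 6 of 17 cases, beside 32.5% and 25% of all genes. Ccnd1 was at 20.4 ± 1.73 CPM in BPA PGCLCs and 179 ± 6.54 CPM in BPA EpiLCs.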
